A study of Arabidopsis thaliana with 8 samples.

Results

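Glucosinolates, the sulfur-rich thioglucosides of the Brassicaceae, were followed through 42 genes for their biosynthesis, regulation and transport, out of 34133 genes with a transcript level in the series. The genes were taken by their AGI identifiers from a list of known pathway members, drawn up with earlier results of these data known. They comprise 26 genes of the aliphatic branch, 11 genes of the indole branch, 3 genes shared by both branches and 2 transporter genes. Transcript levels came from RNA sequencing of entire *Arabidopsis thaliana* rosettes, about 3 weeks old and collected 48 h after treatment. The 4 groups were wild-type Col-0 plants without herbicide (WT control), wild-type plants with imazethapyr (WT IM), *ros1* plants without herbicide (*ros1* control) and *ros1* plants with imazethapyr (*ros1* IM). Imazethapyr was applied at 10.6 g/ha together with 0.5% v/v of the adjuvant Dash. The controls are called mock in the sample titles and non-treated in the protocol, and whether they received Dash is not given in the sources used here. Each group had 2 libraries, and each library held the rosettes of 2 plants.

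Imazethapyr inhibits acetolactate synthase, the enzyme that opens branched-chain amino acid synthesis. ROS1 is a DNA glycosylase that removes 5-methylcytosine, and the *ros1* plants carry the T-DNA insertion SALK_064264, described as a hypomorphic allele. Aliphatic glucosinolates of Arabidopsis are made mainly from methionine, whose side chain is first lengthened in cycles that resemble leucine synthesis. Indole glucosinolates are made from tryptophan. In both branches a core pathway turns the amino acid into an aldoxime, adds the sulfur, glucose and sulfate groups, and further enzymes then modify the side chain. Damage to the leaf brings glucosinolates together with myrosinase, and the breakdown products deter insects and microbes.

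The transcript levels are FPKM, fragment counts divided by transcript length and by the sequenced total. They were deposited as 1 value per group, estimated by the authors from both libraries together. No value per library could be used, so no SD, no test and no *p*-value accompanies any difference here, and whether a difference exceeds the spread between libraries is unknown. A gene was compared where both groups had a value and at least 1 of both reached 1 FPKM. It was called higher or lower where log2(FPKM + 1) differed by at least 1, a 2-fold difference. Log2 differences below are on that scale, and ratios are of the FPKM values themselves. A lower level in a whole rosette can come from fewer cells of a type or from less RNA per cell, and these cannot be told apart. A *ros1* IM value was listed for 17284 genes, which seem to be those that the authors listed as differing in a comparison with this group. The rule of this listing was not checked. Among the 42 glucosinolate genes, 38 had such a value. *IPMI LSU1*, *SOT17*, *CYP81F4* and *AOP3* had none, so counts that involve *ros1* IM leave out genes that were not listed.

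*ROS1* itself (AT2G36490) was measured at 25 FPKM in WT control, 16.7 FPKM in WT IM, 19.0 FPKM in *ros1* control and 4.08 FPKM in *ros1* IM. Its level in *ros1* control was thus only 1.32-fold below WT control, whereas in *ros1* IM it was 4.09-fold below WT IM. This gene-level value does not resolve on which side of the insertion the reads lie.

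The aliphatic and indole branches took opposite courses in imazethapyr-treated *ros1* plants. In *ros1* IM against *ros1* control, 20 of the 23 aliphatic genes with a value were at least 2-fold lower and 0 were higher, with a median log2 difference of -3.08. Among all 16403 genes compared in these groups, 23.4% were at least 2-fold lower and 18.0% higher, with a median of 0.10. Of the 10 indole genes with a value, 6 were at least 2-fold higher and 2 were lower, with a median of 1.06. The background is taken over listed genes, which may favour genes that differ. If none of the 2397 genes with at least 1 FPKM in *ros1* control but no listed *ros1* IM value had differed, 20.45% of genes would be lower and 15.67% higher. The aliphatic median was reached or passed by 659 genes, 4.02% of those compared, and the indole median by 16.7%.

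In WT plants the branches did not part in this way. In WT IM against WT control, 5 of 25 aliphatic genes were at least 2-fold lower and 2 were higher, with a median of -0.71. Of 11 indole genes, 3 were lower and 2 higher, with a median of -0.70. Among all 18829 genes compared, 15.6% were lower and 11.6% higher, with a median of 0.01. Below the 2-fold threshold the aliphatic genes still leaned one way, with 22 of 25 under 0. When the FPKM of each group was scaled to the same sum, 18 of the 25 were under 0 and 7 above. The medians were then -0.27 for the aliphatic and -0.26 for the indole branch, beside a median of 0.41 over all genes.

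**Figure D1:**
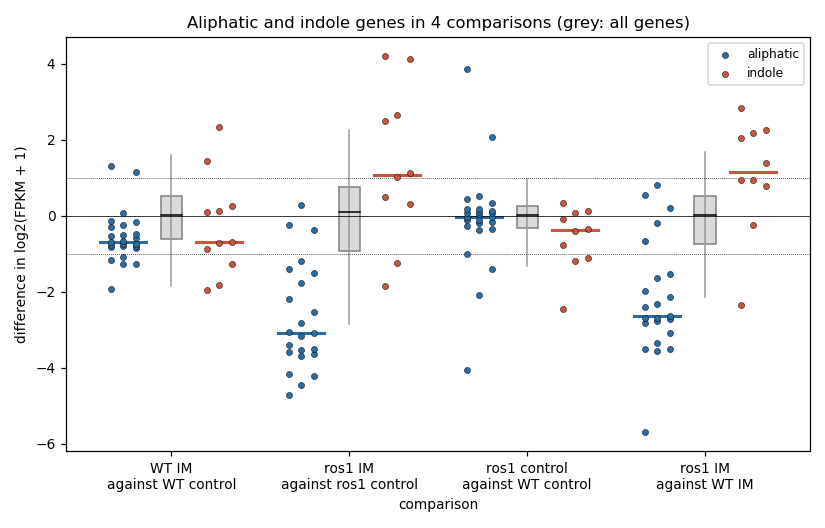
Differences of the aliphatic genes (blue points) and the indole genes (red points) in log2(FPKM + 1) for 4 comparisons, with coloured bars at the medians. Grey boxes span the middle 50% of all genes compared, the black line in them is the median and the thin lines run from the 5th to the 95th percentile. In *ros1* IM against *ros1* control the aliphatic median lies at -3.08 and the indole median at 1.06, while in WT IM against WT control both lie near -0.70.

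The aliphatic pathway is switched on by R2R3-MYB transcription factors. The transcripts of the 3 members were all at least 2-fold lower in *ros1* IM than in *ros1* control, as were 23.4% of all genes compared. *MYB28* (AT5G61420), the main activator, stood at 104 FPKM in WT control, 59.3 FPKM in WT IM, 101 FPKM in *ros1* control and 11.1 FPKM in *ros1* IM. The untreated groups were nearly equal, and the *ros1* IM value was 9.14-fold below its control against 1.76-fold in WT. *MYB29* (AT5G07690), its close relative, had 33.3 FPKM in WT control, 8.03 FPKM in WT IM, 7.07 FPKM in *ros1* control and 0.402 FPKM in *ros1* IM. For this gene alone among the 3 the *ros1* control group was already low, at about the level of WT IM. *MYB76* (AT5G07700) was below 5 FPKM throughout, between 0.354 FPKM in *ros1* IM and 4.89 FPKM in WT control.

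Methionine chain elongation starts with BCAT4, which removes the amino group. *BCAT4* (AT3G19710) was measured at 238 FPKM in WT control, 170.2 FPKM in WT IM, 339 FPKM in *ros1* control and 26.2 FPKM in *ros1* IM. BAT5 carries the resulting keto acid into the chloroplast, and its transcript (AT4G12030) ran from 78.8 FPKM in WT control to 36.2 FPKM in WT IM, and from 60.2 FPKM in *ros1* control to 2.26 FPKM in *ros1* IM. This 26.6-fold difference was the largest of the elongation genes in *ros1*, and in WT the ratio was 2.18-fold.

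The condensing enzymes of the cycle, the methylthioalkylmalate synthases, are neighbours on chromosome 5. *MAM1* (AT5G23010) stood at 307.5 FPKM in WT control, 188 FPKM in WT IM, 254 FPKM in *ros1* control and 21.4 FPKM in *ros1* IM. *MAM3* (AT5G23020), which accepts longer chains, had 38.2 FPKM in WT control, 31.8 FPKM in WT IM, 163 FPKM in *ros1* control and 56.1 FPKM in *ros1* IM. The order of both genes thus turned between the treated groups. *MAM1* was above *MAM3* in both WT groups and in *ros1* control, and below it in *ros1* IM.

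Isomerisation is done by a heterodimer with a large subunit that leucine synthesis also uses and small subunits of its own. The large subunit gene *IPMI LSU1* (AT4G13430) was even across the 3 groups with a value, at 344 FPKM in WT control, 362 FPKM in WT IM and 371 FPKM in *ros1* control. The small subunit gene *IPMI SSU2* (AT2G43100) had 261.5 FPKM in WT control, 156 FPKM in WT IM, 353 FPKM in *ros1* control and 38.8 FPKM in *ros1* IM. For *IPMI SSU3* (AT3G58990) the values were 142 FPKM, 83.1 FPKM, 159.7 FPKM and 11.4 FPKM in the same order. Both small subunit genes were called lower in *ros1* IM, with log2 differences of -3.15 and -3.69, and not in WT IM. *IPMDH1* (AT5G14200), the dehydrogenase that closes the cycle, had 246 FPKM in WT control, 140.2 FPKM in WT IM, 220 FPKM in *ros1* control and 25.6 FPKM in *ros1* IM. All 7 elongation genes with a *ros1* IM value were at least 2-fold lower there than in *ros1* control, with a median of -3.51, against 1 of 8 in WT. The shares lower of all genes were 23.4% in *ros1* and 15.6% in WT.

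The core pathway opens with the CYP79F enzymes, which form the aldoximes of chain-elongated methionine. *CYP79F1* (AT1G16410) had 244 FPKM in WT control, 138 FPKM in WT IM, 256 FPKM in *ros1* control and 20.3 FPKM in *ros1* IM. Its tandem neighbour *CYP79F2* (AT1G16400), which prefers long chains, stayed between 5.34 FPKM in *ros1* IM and 7.26 FPKM in *ros1* control, with 6.92 FPKM in WT control and 6.22 FPKM in WT IM. The transcripts of this pair therefore differed 12.6-fold and 1.36-fold between the *ros1* groups. *CYP83A1* (AT4G13770), which oxidises the aldoximes, was at 309 FPKM in WT control, 195 FPKM in WT IM, 346 FPKM in *ros1* control and 28.8 FPKM in *ros1* IM.

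The glutathione transferases thought to add the sulfur donor had the largest *ros1* differences among the listed aliphatic genes on the log2(FPKM + 1) scale, whereas by the ratio of FPKM *BAT5* (26.6-fold) was ahead of *GSTU20* (22.35-fold). *GSTU20* (AT1G78370) was the most abundant of the 26 aliphatic transcripts in 3 groups, with 979 FPKM in WT control, 579 FPKM in WT IM and 1238 FPKM in *ros1* control, and had 55.4 FPKM in *ros1* IM. *GSTF11* (AT3G03190) went from 37.6 FPKM in WT control to 15.1 FPKM in WT IM, and from 34.8 FPKM in *ros1* control to 0.354 FPKM in *ros1* IM. On the log2 scale the *ros1* differences were -4.46 and -4.73, and *GSTF11* was also called lower in WT. UGT74C1 adds the glucose, and its transcript (AT2G31790) had 125 FPKM in WT control, 55.3 FPKM in WT IM, 128 FPKM in *ros1* control and 17.1 FPKM in *ros1* IM.

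Sulfation by SOT17 and SOT18 ends the aliphatic core. *SOT18* (AT1G74090) stood at 132 FPKM in WT control, 73 FPKM in WT IM, 122 FPKM in *ros1* control and 45.3 FPKM in *ros1* IM. *SOT17* (AT1G18590) had 68.5 FPKM in WT control, 56 FPKM in WT IM and 59.8 FPKM in *ros1* control. The *SOT18* ratio of 2.70-fold in *ros1* was smaller than those of the preceding core genes other than *CYP79F2*. Of the 7 core genes with a *ros1* IM value, 6 were at least 2-fold lower, *CYP79F2* being the exception, while 2 of 8 were in WT. Of all genes, 23.4% were lower in *ros1* and 15.6% in WT.

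**Figure D2:**
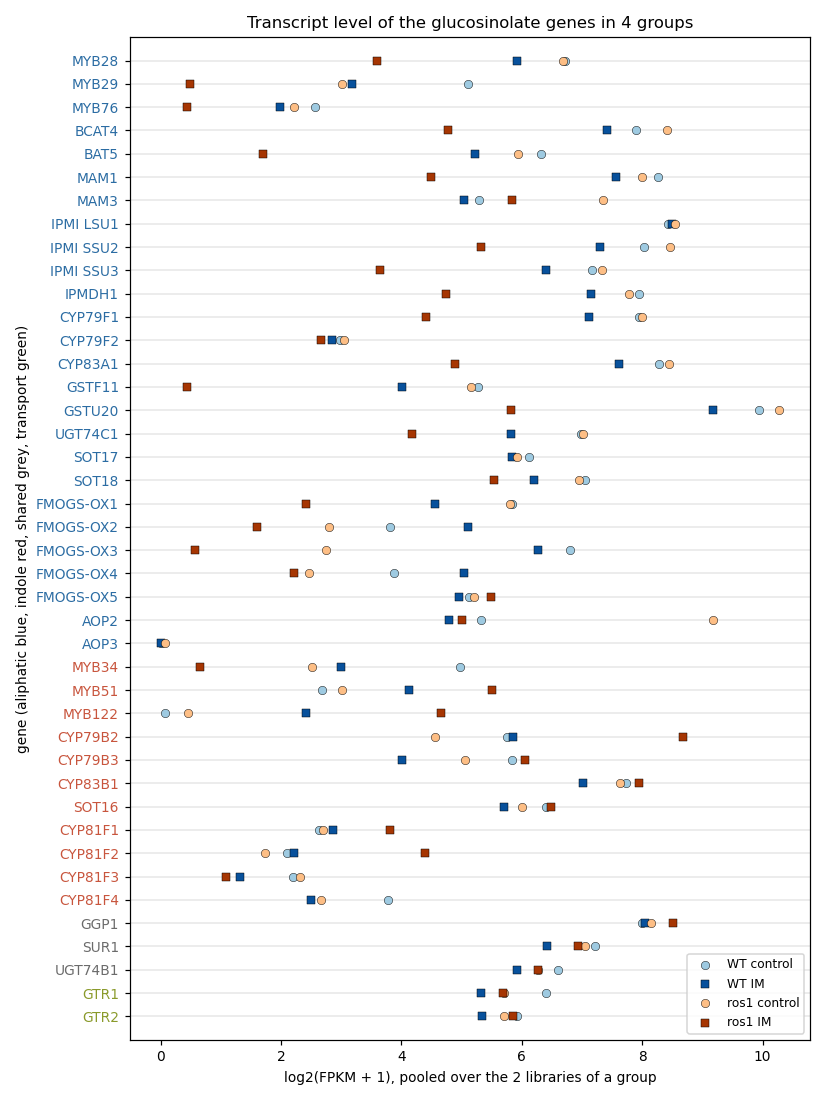
Transcript level of the 42 glucosinolate genes as log2(FPKM + 1), with 1 point for each group pooled over its 2 libraries. Circles are control groups, squares are imazethapyr groups, blue shades are WT and orange to brown shades are *ros1*. For most aliphatic genes, named in blue, the *ros1* IM square lies far left of the other 3 points, as for *GSTU20* at 55.4 FPKM, while for *CYP79B2* it lies at the right, at 409 FPKM.

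Since many aliphatic genes moved together, the 250 bases upstream of the annotated start of each of the 42 genes were read from the RefSeq assembly TAIR10.1. They were searched on both strands for AC elements, the type of site bound by R2R3-MYB factors, as the word ACCTAAC, the word ACCAACC or the word ACCTACC, and for the G-box, CACGTG, the type of site bound by MYC factors. An AC element stood in 8 of 26 aliphatic windows (30.8%) and 1 of 11 indole windows, against 6.12% of 27443 protein-coding genes. A G-box stood in 2 of 26 aliphatic windows and in 0 of the indole windows, against 6.49% of the genes. AC elements also stood upstream of *CYP79F2*, *SOT16*, *SUR1* and *UGT74B1*, which were not called in *ros1*. Most aliphatic genes called lower in *ros1* had none. Among these were *GSTF11* and *GSTU20*, with the largest differences (-4.73 and -4.46), and *AOP2* (-4.17). A match describes letters and is not evidence of binding. Shown here are the windows of the 3 genes with the largest *ros1* differences among those with a match, chosen after their values were seen, with the matched words in capitals, which do not overlap. The first window lies on the plus strand, chr4:7210557-7210806, and holds an AC element on its reverse strand. The second is on the minus strand, chr3:21798304-21798553, with an AC element on the strand shown. The third, on the minus strand at chr4:7992430-7992679, holds an AC element on its reverse strand, followed by a G-box. No other annotated gene lies in these windows.
BAT5: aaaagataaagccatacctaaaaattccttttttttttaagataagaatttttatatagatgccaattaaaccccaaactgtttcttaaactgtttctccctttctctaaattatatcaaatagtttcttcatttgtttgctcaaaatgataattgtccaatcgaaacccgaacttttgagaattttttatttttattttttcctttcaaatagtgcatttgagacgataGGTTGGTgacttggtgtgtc
IPMI SSU3: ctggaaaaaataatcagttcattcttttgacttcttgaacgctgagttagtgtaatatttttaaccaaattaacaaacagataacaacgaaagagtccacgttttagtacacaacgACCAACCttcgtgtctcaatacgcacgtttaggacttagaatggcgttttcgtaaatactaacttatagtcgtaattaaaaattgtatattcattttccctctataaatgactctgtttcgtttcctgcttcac
CYP83A1: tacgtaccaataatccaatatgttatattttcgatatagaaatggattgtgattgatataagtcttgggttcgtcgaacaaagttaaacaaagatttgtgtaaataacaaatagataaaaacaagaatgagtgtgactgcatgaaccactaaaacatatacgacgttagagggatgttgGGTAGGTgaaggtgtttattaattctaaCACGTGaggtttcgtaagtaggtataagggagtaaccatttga

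The side-chain modification genes of the aliphatic branch did not move as a group. The flavin monooxygenases FMOGS-OX1 to FMOGS-OX5 oxidise the methylthio group to a methylsulfinyl group. *FMOGS-OX1* (AT1G65860) followed the core genes, with 56.3 FPKM in WT control, 22.6 FPKM in WT IM, 55.1 FPKM in *ros1* control and 4.32 FPKM in *ros1* IM. *FMOGS-OX5* (AT1G12140) did not, with 33.9 FPKM, 30.1 FPKM, 36.1 FPKM and 44 FPKM in that order, and was the only aliphatic gene with a *ros1* log2 difference above 0, at 0.28.

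The genes *FMOGS-OX2*, *FMOGS-OX3* and *FMOGS-OX4* lie side by side on chromosome 1, at TAIR10 positions chr1:23151794-23155717, chr1:23159823-23162649 and chr1:23169136-23172105. *FMOGS-OX2* (AT1G62540) had 13.1 FPKM in WT control, 33.6 FPKM in WT IM, 5.95 FPKM in *ros1* control and 2.03 FPKM in *ros1* IM. *FMOGS-OX4* (AT1G62570) resembled it in WT, with 13.7 FPKM and 31.7 FPKM, and had 4.52 FPKM in *ros1* control and 3.65 FPKM in *ros1* IM. These were the 2 aliphatic genes called higher in WT IM. *FMOGS-OX3* (AT1G62560) was the most abundant of the cluster in WT, at 111 FPKM in WT control and 76.2 FPKM in WT IM, and had 5.73 FPKM in *ros1* control and 0.482 FPKM in *ros1* IM. All 3 genes were thus lower in both *ros1* groups than in either WT group.

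The dioxygenases AOP2 and AOP3 convert methylsulfinyl side chains to alkenyl and hydroxyalkyl forms. *AOP2* (AT4G03060), at TAIR10 chr4:1351980-1353854, was measured at 38.8 FPKM in WT control, 26.8 FPKM in WT IM, 578 FPKM in *ros1* control and 31.1 FPKM in *ros1* IM. The *ros1* control value stood apart as the second highest of the 26 aliphatic genes in that group, and the treated *ros1* value was 18.6-fold below it and close to both WT values. *AOP3* (AT4G03050) was listed at 0 in both WT groups and at 0.0556 FPKM in *ros1* control. Over the side-chain genes, 4 of 6 were called lower in *ros1* IM than in *ros1* control, and the log2 differences ran from -4.17 to 0.28. The share lower of all genes was 23.4%.

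The indole branch has its own trio of MYB activators, and these went different ways. *MYB34* (AT5G60890) was 30.4 FPKM in WT control, 7.01 FPKM in WT IM, 4.71 FPKM in *ros1* control and 0.580 FPKM in *ros1* IM. It was lower with imazethapyr in both genotypes, with log2 differences of -1.97 in WT and -1.85 in *ros1*, and its untreated *ros1* level was 6.45-fold below WT. *MYB51* (AT1G18570), a regulator of the stress-inducible part of the pathway, had 5.39 FPKM in WT control, 16.4 FPKM in WT IM, 7.07 FPKM in *ros1* control and 44.4 FPKM in *ros1* IM. *MYB122* (AT1G74080) was at 0.051 FPKM in WT control and 0.371 FPKM in *ros1* control, and at 4.31 FPKM in WT IM and 24.2 FPKM in *ros1* IM. Both were called higher with the herbicide in WT, by 1.45 and 2.34, and in *ros1*, by 2.49 and 4.20.

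**Figure D3:**
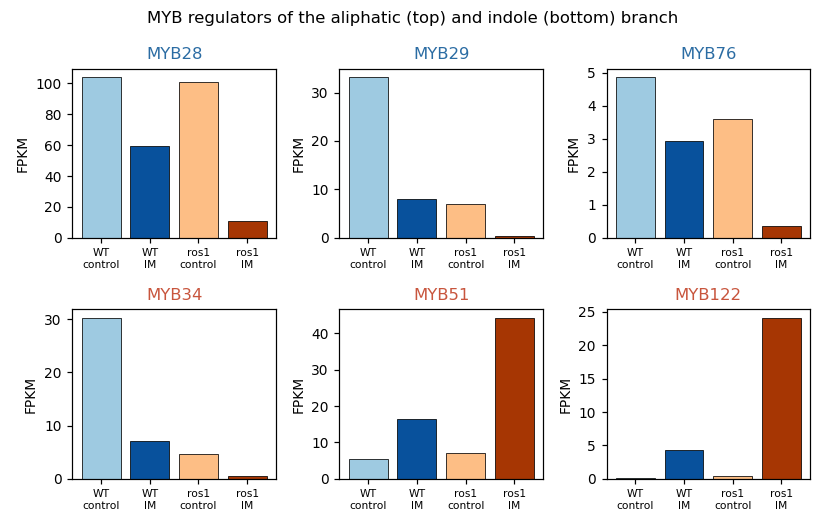
FPKM of the 6 MYB regulators in the 4 groups, with the aliphatic regulators in the top row and the indole regulators in the bottom row. Each bar is 1 value pooled over the 2 libraries of a group, the vertical scales differ between panels, and there are no error bars because no values per library were used. *MYB28* fell from 101 to 11.1 FPKM between the *ros1* groups, while *MYB51* rose from 7.07 to 44.4 FPKM.

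CYP79B2 and CYP79B3 turn tryptophan into indole-3-acetaldoxime, a step that also feeds camalexin, the phytoalexin of Arabidopsis, and auxin. *CYP79B2* (AT4G39950) was 53.2 FPKM in WT control, 56.7 FPKM in WT IM, 22.5 FPKM in *ros1* control and 409 FPKM in *ros1* IM. With a log2 difference of 4.12 in *ros1* against 0.09 in WT, it showed the widest gap between the genotypes of all 38 genes with a value in 4 groups. *CYP79B3* (AT2G22330) had 55.9 FPKM in WT control, 15.1 FPKM in WT IM, 32.1 FPKM in *ros1* control and 65.3 FPKM in *ros1* IM. This gene was called lower in WT, by 1.82, and higher in *ros1*, where its difference of 1.00 lay just at the threshold and was 0.90, under it, once centred on the median of all genes.

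Later steps of the indole core varied less. *CYP83B1* (AT4G31500), which oxidises the indole aldoxime, had 212 FPKM in WT control, 128 FPKM in WT IM, 197 FPKM in *ros1* control and 246 FPKM in *ros1* IM. The sulfotransferase gene *SOT16* (AT1G74100) had 83.5 FPKM, 51.1 FPKM, 62.8 FPKM and 88.8 FPKM in that order. Neither was called in WT or in *ros1*, and for both the WT difference lay below 0 and the *ros1* difference above it.

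The CYP81F enzymes hydroxylate the indole ring, and CYP81F2 is needed for the 4-methoxy form that takes part in defence against fungi. *CYP81F2* (AT5G57220) was 3.27 FPKM in WT control, 3.62 FPKM in WT IM, 2.33 FPKM in *ros1* control and 20 FPKM in *ros1* IM. *CYP81F1* (AT4G37430) had 5.17 FPKM in WT control, 6.31 FPKM in WT IM, 5.45 FPKM in *ros1* control and 13 FPKM in *ros1* IM. Both were called higher in *ros1* IM, by 2.66 and 1.12 on the log2 scale, and not in WT IM. *CYP81F3* (AT4G37400) was below 4 FPKM in all groups and was called lower in *ros1* IM, by 1.24. *CYP81F4* (AT4G37410) had 12.7 FPKM in WT control, 4.66 FPKM in WT IM and 5.34 FPKM in *ros1* control, and was called lower in WT IM.

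The 3 genes that serve both branches differed by less than 2-fold between the *ros1* groups. *GGP1* (AT4G30530), which trims the glutathione conjugate, had 256 FPKM in WT control, 263.5 FPKM in WT IM, 283 FPKM in *ros1* control and 366 FPKM in *ros1* IM. *SUR1* (AT2G20610), the C-S lyase, had 148 FPKM, 85 FPKM, 131 FPKM and 121 FPKM in that order, and *UGT74B1* (AT1G24100), the other glucosyltransferase, had 96.5 FPKM, 59.6 FPKM, 76.4 FPKM and 76.2 FPKM. None of the 3 was called in either response, and their *ros1* differences lay between -0.12 and 0.37. With the groups scaled to equal sums, all 3 *ros1* differences lay above 0, but the median of all genes was then itself 0.46.

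GTR1 and GTR2 load glucosinolates into the phloem. *GTR1* (AT3G47960) had 83.6 FPKM in WT control, 39.1 FPKM in WT IM, 51.1 FPKM in *ros1* control and 50.8 FPKM in *ros1* IM. *GTR2* (AT5G62680) had 59.4 FPKM, 39.6 FPKM, 51.1 FPKM and 56.5 FPKM in the same order. Only *GTR1* in WT IM was called, at a log2 difference of -1.08, and between the *ros1* groups both genes differed by at most 0.14.

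Put side by side, the summed level of the 23 aliphatic genes with 4 values was 3555 FPKM in WT control, 2159 FPKM in WT IM, 4477 FPKM in *ros1* control and 452 FPKM in *ros1* IM. The treated group was thus 1.65-fold below its control in WT and 9.91-fold in *ros1*, and without *GSTU20* the *ros1* ratio was 8.17-fold. With *IPMI LSU1*, *SOT17* and *AOP3* set in *ros1* IM to their *ros1* control levels, the aliphatic sum there would be 883 FPKM and the *ros1* ratio 5.56-fold. The 10 indole genes summed to 452 FPKM, 290.1 FPKM, 338.5 FPKM and 912 FPKM in that order, a 2.69-fold higher sum in *ros1* IM than in *ros1* control. Most of this rise lay in *CYP79B2*, at 22.5 FPKM in *ros1* control and 409 FPKM in *ros1* IM. No sum or share was taken without this gene. The indole genes made up 11.3% of both sums in WT control, 11.85% in WT IM, 7.03% in *ros1* control and 66.9% in *ros1* IM. The *ros1* IM share would be 50.95% with the 4 unlisted genes at their *ros1* control levels. Among the 23 aliphatic genes listed in *ros1* IM, *MAM3* and no longer *GSTU20* had the highest level, and *IPMI LSU1*, which was at 344 to 371 FPKM in the other groups, was not among them. These sums are of transcript levels, and no glucosinolate was measured.

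Gene by gene, the response of *ros1* minus that of WT had a median of -2.28 on the log2 scale over the 23 aliphatic genes, with 19 at or below -1 and 0 at or above 1. Over the 10 indole genes the median was 1.12, with 7 at or above 1 and 0 at or below -1. All 16841 genes with 4 values had a median of -0.03, with 1576 at or above 1 and 2156 at or below -1. The lowest aliphatic values were those of *GSTU20*, *AOP2* and *GSTF11*, at -3.70, -3.66 and -3.47, and the highest indole value was that of *CYP79B2*, at 4.03. For *AOP2* the gap includes its high *ros1* control value. *MYB34* had a gap of 0.12, the smallest in size of the indole genes. Without values per library this difference between the genotypes was not tested.

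**Figure D4:**
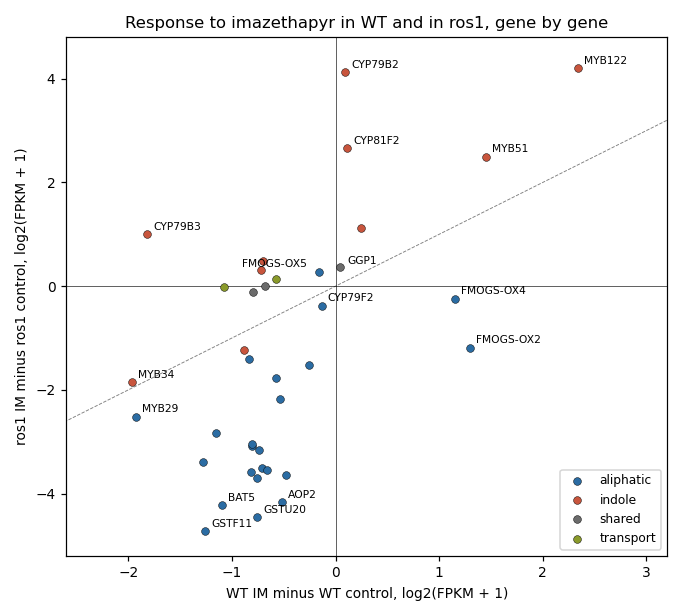
Log2 difference of each gene in WT (x axis) and in *ros1* (y axis), both as imazethapyr group minus control group in log2(FPKM + 1), with the dashed line where both would be equal. Most aliphatic genes (blue) lie far below the line and most indole genes (red) above it, with *CYP79B2* at 0.09 and 4.12 and *GSTF11* at -1.26 and -4.73.

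Without herbicide, most of the pathway had similar levels in both genotypes, and a few genes stood far apart. In *ros1* control against WT control, 2 of 25 aliphatic genes were called higher and 4 lower, with a median of -0.03. Of 10 indole genes 3 were lower and 0 higher, with a median of -0.38. Among all 18799 genes compared, 4.69% were higher and 8.02% lower. The higher pair was *AOP2*, 14.9-fold above WT control, and *MAM3*, 4.27-fold above. The lower aliphatic genes were *FMOGS-OX3*, 19.4-fold below WT control, and *MYB29*, *FMOGS-OX4* and *FMOGS-OX2*, 4.71-fold, 3.04-fold and 2.2-fold below. The lower indole genes were *MYB34*, *CYP81F4* and *CYP79B2*, the last 2 at ratios of 2.38-fold and 2.36-fold. None of the 8 aliphatic core genes was called, their differences running from -0.19 to 0.34. *GSL-OH* (AT2G25450), a further side-chain gene of this branch that is no member of the set and was picked after its values were seen, had 313 FPKM in WT control, 191 FPKM in WT IM, 13.5 FPKM in *ros1* control and 20.4 FPKM in *ros1* IM. The *MAM*, *AOP* and *GSL-OH* loci are known for natural variation between Arabidopsis accessions. Per the paper, a smaller share of the *ros1* reads than of the WT reads aligned to the reference. The paper names Col-0 as the accession of all its experiments and as the background of its mutants. The background of the *ros1* plants was not checked here. The part of sequence differences in any value of *ros1* against WT was not tested.

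**Figure D5:**
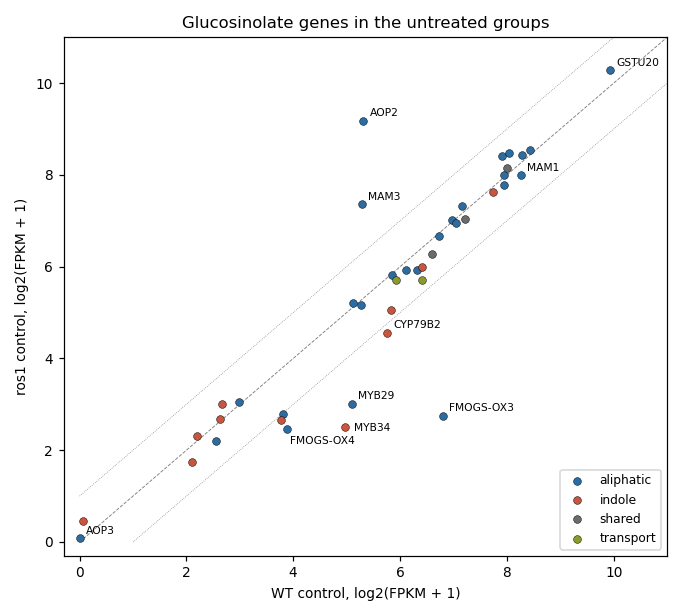
Level of each glucosinolate gene in WT control (x axis) and *ros1* control (y axis) as log2(FPKM + 1), with a dashed line of equal levels and dotted lines at a 2-fold difference. *AOP2* (38.8 against 578 FPKM) and *MAM3* lie above the band, and *FMOGS-OX3* (111 against 5.73 FPKM), *MYB29* and *MYB34* lie below it.

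Between the treated groups, 18 of 23 aliphatic genes stood at least 2-fold below WT IM in *ros1* IM and 0 stood above, with a median of -2.65. Of 10 indole genes, 5 were higher and 1, *MYB34*, was lower, with a median of 1.16. Among all 16329 genes compared, 18.9% were lower and 11.2% higher. If none of the 2314 genes without a listed *ros1* IM value had differed, these shares would be 16.55% and 9.84%. The aliphatic median was reached or passed by 2.67% of the genes and the indole median by 9.08%. The 5 aliphatic genes outside the call were *MAM3*, *FMOGS-OX5* and *AOP2*, with differences of 0.80, 0.53 and 0.21, and *CYP79F2* and *SOT18*, with -0.19 and -0.68. The largest gap was that of *FMOGS-OX3*, at -5.70, which was already low in *ros1* control. This comparison shares its groups with both responses above and adds no independent samples.

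Related genes outside the 42 were followed in lists of their own. Of the further glucosinolate genes, 3 of 10 were called higher and 2 lower in *ros1* IM against *ros1* control. In WT, 0 of 10 were called in either direction. Of all genes, 18.0% were higher and 23.4% lower in *ros1*, and 11.6% higher and 15.6% lower in WT. The 3 higher genes of the list were indole glucosinolate methyltransferases, which act after the CYP81F enzymes. *IGMT2* (AT1G21120) had 3.48 FPKM in WT control, 4.85 FPKM in WT IM, 1.85 FPKM in *ros1* control and 11.5 FPKM in *ros1* IM, and *IGMT1* and *IGMT3* were higher in *ros1* by 1.66 and 1.30 on the log2 scale. The family did not move together, since *IGMT5* was called lower, at -1.08, and *IGMT4* was not called, at 0.76. The other gene called lower was *BCAT3*, at -1.21, an aminotransferase of chain elongation. These 3 genes were named after their values were seen. *IGMT1*, *IGMT2*, *IGMT3* and *IGMT4* are neighbours on chromosome 1 and similar in sequence, and how reads were divided among them was not analysed here.

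Among the upstream regulators, 1 of 6 was called higher and 2 lower in *ros1*, and 1 of 8 higher in WT. The shares higher were near those of all genes, 18.0% in *ros1* and 11.6% in WT. For the genes lower in *ros1*, the share of all genes was 23.4%. *SDI1* (AT5G48850), a sulfur-deficiency gene that represses aliphatic glucosinolate synthesis, had 3.44 FPKM in WT control, 50.4 FPKM in WT IM, 38.9 FPKM in *ros1* control and 11.1 FPKM in *ros1* IM. It was the only gene of this list called in WT IM, and its *ros1* difference had the opposite sign. *MYC4*, a partner of the MYB activators, was lower in *ros1* by 1.73, and *SLIM1*, a regulator of sulfur deficiency responses, was higher by 1.17 on the log2 scale.

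Of the sulfur supply genes, 2 of 12 were called higher and 1 lower in *ros1*, and 1 of 12 higher in WT, which is near or below the shares of all genes. *GSH1* (AT4G23100), the first enzyme of glutathione synthesis, had 209 FPKM in WT control, 189 FPKM in WT IM, 199.9 FPKM in *ros1* control and 616 FPKM in *ros1* IM. *ATPS3*, an ATP sulfurylase, was lower in *ros1* by 1.45, and *SULTR1;2*, a sulfate transporter, was higher in WT by 1.33. The genes of leucine synthesis that match the elongation enzymes were not called in *ros1* (0 of 4) or in WT (0 of 5). Their largest difference was that of *IPMDH2* (AT1G80560), at -0.84 in WT and -0.83 in *ros1*, followed by *IPMS2* and *IPMDH3*.

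The 4 rosette leaf markers, all photosynthesis genes, were lower in *ros1* IM than in *ros1* control, with a median of -4.50. In WT IM 3 of 4 were lower, with a median of -2.18. The aliphatic medians were -3.08 in *ros1* and -0.71 in WT. Of all genes, 23.4% were lower in *ros1* and 15.6% in WT. *RBCS1A* (AT1G67090), encoding the small subunit of Rubisco, had 27669 FPKM in WT control, 6115 FPKM in WT IM, 26309 FPKM in *ros1* control and 1042 FPKM in *ros1* IM. For *LHCB1.1*, a light-harvesting protein gene, the differences were -3.34 in WT and -8.01 in *ros1*, and for *RCA*, encoding Rubisco activase, they were -2.18 and -4.33. The 4 markers summed to 32487 FPKM in WT control, 7162 FPKM in WT IM, 31491 FPKM in *ros1* control and 1263 FPKM in *ros1* IM. The root markers *COBL9* and *EXPA7* and the flower markers *AP3* and *AG* were under 1 FPKM wherever a value was listed, and none had a *ros1* IM value. Whether the lower level of these photosynthesis transcripts has any part in the aliphatic result was not tested.

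The library kit did not mark the strand. By the TAIR10.1 annotation, 10 of the 42 genes overlap another gene (*BCAT4*, *IPMDH1*, *GSTF11*, *UGT74C1*, *SOT18*, *FMOGS-OX5*, *CYP81F1*, *CYP81F4*, *GTR1* and *GTR2*), and reads of the overlapping stretches cannot be told apart. Windows of 100 bases, the read length, were unique in the nuclear genome for 40 of the 42 genes, and *CYP79F1* and *CYP79F2* had 1 such window in common.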

How the data were processed

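Libraries were made from total RNA with an unstranded TruSeq kit and sequenced as single-end reads of 100 bases. Per the methods and processing notes, read quality was examined in FastQC 0.10.1, the FASTX-Toolkit was used for trimming, TopHat2 with Bowtie2 for alignment to TAIR10, and Cufflinks with Cuffdiff for quantification. Neither the Cuffdiff version nor the annotation release is given in the sources used here. The deposited values are FPKM, which the authors estimated for each group over its 2 libraries, so depth and spread per library were not analysed here, and the precision of a value is unknown. The files also hold the authors' own comparisons (log2 fold changes, test statistics, p-values, q-values and significance flags), which were not used.

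FPKM were read from 7 tables, the table of all genes and those of 6 comparison workbooks. Of 157256 repeated pairs of gene and group, 0 were unequal. The table of all genes holds 34133 genes for the untreated groups and only 31402 genes for the WT response, where it ends on chromosome 5, and 32920 genes had a WT IM value over all tables. *ros1* IM values were listed for 17284 genes only, which seem to be those that the authors listed as differing in a comparison with that group. As their significance flags were not used, the rule of this listing was not checked.

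Differences were taken as log2(FPKM + 1), with a pseudocount of 1, for genes with at least 1 FPKM in 1 of both groups. The call was a 2-fold difference, described for each branch by counts and medians beside all genes compared. Alternatives were a pseudocount of 0.1, a minimum of 5 FPKM or none, thresholds of 1.5-fold and 4-fold, centring on the median of all genes, scaling to equal sums, and branches without side-chain genes or MYB regulators. Members with at least 5 FPKM in a group were named with 4 values, and from each related list up to 3 genes with the largest response. The members and lists were chosen with earlier results of these data known. Promoters and overlaps came from RefSeq TAIR10.1, where all 42 members have a locus tag. The calculation recovered 4-fold differences planted without noise in copies of the WT control values, which checks the arithmetic only. Python 3.11.15, pandas 2.3.3 and numpy 2.4.6 were used.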

Additional observations from a re-analysis of the deposited data

Results flagged for a closer look

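The responses of 3 genes to imazethapyr had opposite directions in WT and *ros1*, each at least 2-fold. They come from the 42 glucosinolate genes and the related lists together. No share of all genes with such opposite responses is given here, so the count has no background. *FMOGS-OX2* was higher in WT IM than in WT control by 1.30 on the log2 scale and lower in *ros1* IM than in *ros1* control (-1.20), a difference of -2.49 (*ros1* minus WT). *CYP79B3* was lower in WT (-1.82) and higher in *ros1* (1.00), a difference of 2.83, though its *ros1* value lay under the 2-fold threshold, at 0.90, when centred on the median of all genes. *SDI1*, outside the 42 genes, was higher in WT (3.53) and lower in *ros1* (-1.72), a difference of -5.26. With 1 pooled value per group, these differences between the genotypes were not tested.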

How the results depend on the processing

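Of 231 values recomputed under the alternatives, 200 stayed within 1.5-fold of the reported median, ratio or count and 31 moved further. A reversal could be flagged only for medians of at least 1 in size on the log2 scale, and none of these changed sign. Counts, ratios and smaller medians could not be flagged by this rule. The values within 1.5-fold include the WT medians with equal sums, -0.27 for the aliphatic branch in place of -0.71 and -0.26 for the indole branch in place of -0.70. The *ros1* response of the aliphatic branch kept a median between -3.51 and -2.71, with 16 to 20 genes lower and 0 higher under every alternative run. The share of all genes lower ran from 10.4% at 4-fold to 32.6% at 1.5-fold. The indole median in *ros1*, 1.06, was 1.80 with a minimum of 5 FPKM and 2.49 with a minimum of 20 FPKM, an alternative chosen after seeing the data. Of the 6 higher indole genes, 5 were called after centring on the median of all genes, which lost *CYP79B3*. The share of all genes higher was then 15.8%. With unlisted genes at their *ros1* control levels, also chosen after seeing the data, the *ros1* ratio of the aliphatic sums was 5.56-fold in place of 9.91-fold. In WT IM against WT control, 14 aliphatic genes were lower at a 1.5-fold threshold, 0 at 4-fold and 1 with equal sums, in place of 5. For the indole branch these counts were 6 at 1.5-fold and 0 at 4-fold, in place of 3. The shares of all genes lower in WT were 25.6% at 1.5-fold, 3.96% at 4-fold and 9.64% with equal sums. In *ros1* control against WT control, the 4 lower aliphatic genes became 2 at 4-fold, 2 at a minimum of 20 FPKM and 1 without side-chain genes. The 3 lower indole genes became 1 at 4-fold. In this comparison 2.13% of all genes were lower at 4-fold, 7.73% at a minimum of 20 FPKM and 8.02% in the main setting. The aliphatic median there, -0.03, ranged from -0.04 to 0.06, so its sign changed under some alternatives. In *ros1* IM against WT IM, the indole median of 1.16 became 2.04 at a minimum of 20 FPKM. The 5 higher indole genes became 8 at 1.5-fold, where 22.2% of all genes were higher. They became 3 without MYB regulators, where the share of all genes stayed at 11.2%. Thresholds and filters act by their construction. For the equal sums the cause was not tested.

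Scaling to equal sums moved the median of all genes from 0.01 to 0.41 in WT and from 0.10 to 0.46 in *ros1*. The shares of genes higher and lower became 21.8% and 9.64% in WT and 28.1% and 18.4% in *ros1*, in place of 11.6% and 15.6%, and of 18.0% and 23.4%.

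No paired analysis was possible because the values are pooled over both libraries of a group, and leaving out each replicate was not run for the same reason. Differences under the unknown spread between libraries cannot be read from these values, least of all for genes near 1 FPKM.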
